A study of Mus musculus with 2 samples.

Results

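The genes described are 10 members of the fibroblast growth factor (FGF) pathway in mouse embryonic stem (ES) cells, taken by name from a table of 21937 genes. They are the ligand genes Fgf4, Fgf5 and Fgf15, the receptor genes Fgfr1 and Fgfr2, the feedback inhibitor genes Spry2, Spry4 and Dusp6, and the transcription factor genes Etv4 and Etv5. All 10 were in the table and all 10 had reads in every library. RNA was sequenced from feeder-free wild-type ES cells of the mixed strain 129Sv-C57Bl/6 after 16 h in 500 nM ICRF-193, a catalytic inhibitor of topoisomerase II, against 16 h in its solvent DMSO. Each of the 2 groups held 3 libraries, which the deposited table gives only as a mean. The labels name no separate cultures, so p-values measure the spread between these libraries, which may be technical.

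FGF ligands bind receptor tyrosine kinases at the cell surface, and the receptors pass the signal through RAS and a chain of kinases to ERK. ERK activity switches on its own brakes, the Sprouty proteins and the phosphatase DUSP6, together with the ETS-family factors ETV4 and ETV5, and these transcripts are commonly read as a record of ERK signalling. In mouse ES cells FGF4 is the main FGF that the cells make for themselves, and its signal readies them to leave the naive state.

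The mean of each group is in normalised reads, that is a gene's reads after scaling each library by its own size factor. Because the means carry 15 digits, whole reads per library could be worked back from them, with 1 possible solution for each of the 10 genes. Within each group the letters A, B and C stand for the libraries from the largest size factor to the smallest, and could not be matched to the submitters' replicate numbers. Recovered reads ran from 27476539 to 31981672 per library in ICRF-193 and from 30831578 to 43691686 in DMSO. Libraries A stood apart from B and C in both groups. The summed level of 8 fibroblast or feeder markers was 50086 in library A against 7139.5 to 8088 in B and C in ICRF-193, and 40131 against 4727 to 5637 in DMSO. Acta2 and Col1a1 made up most of it, at 30478 and 15180.3 in ICRF-193-A and 22938.5 and 12908 in DMSO-A. Col1a2, Col3a1 and Postn were also higher in library A of both groups, Thy1 was lower there at 0.832 of the mean of B and C in ICRF-193 and 0.624 in DMSO, Dcn was mixed, higher in library A in ICRF-193 and lower there at 0.625 in DMSO, and Lum was near 0 at 0.335 normalised reads on average in ICRF-193 and 0.331 in DMSO. The 7 primitive endoderm markers summed to 4243 in library A against 1569 and 1944 in B and C in ICRF-193, and to 4190.0 against 919 and 1516 in DMSO. The 8 ES markers were present in every library and summed to 79481 to 89046 in ICRF-193 and 119991 to 131221 in DMSO, but libraries A differed in their makeup. Relative to the mean of B and C, library A held 3.00 times as much Nanog in ICRF-193 and 2.14 times in DMSO, 2.41 and 2.56 times as much Klf4 in ICRF-193 and DMSO, and 1.84 and 1.96 times as much Esrrb. Pou5f1 was lower in library A, at 0.671 in ICRF-193 and 0.674 in DMSO. Results are therefore given for the authors' test and also for limma-voom fits on the recovered reads with a second term that sets both libraries A apart from the other 4, called the split term.

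Of the 10 genes, Fgf4 alone passed the authors' test. It fell to 0.554 of its DMSO level. The receptor, feedback and ETV genes had ratios near 1 on either side, and none passed: Fgfr1, Dusp6, Etv4 and Spry4 had deposited ratios of 1.17 to 1.29, while Spry2, Etv5 and Fgfr2 had ratios of 0.854 to 0.935. In the authors' DESeq test 0 of the 10 were higher and 1 was lower at an adjusted p under 0.05, and the same numbers held at an unadjusted p under 0.05. At the adjusted threshold 7.23% of the 18759 genes with reads were called, 5.97% higher and 1.26% lower. The share at the unadjusted one was not counted. The median deposited log2 fold change was 0.07 over the 10 genes and -0.000995 over the 17705 genes with reads in both groups.

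**Figure D1:**
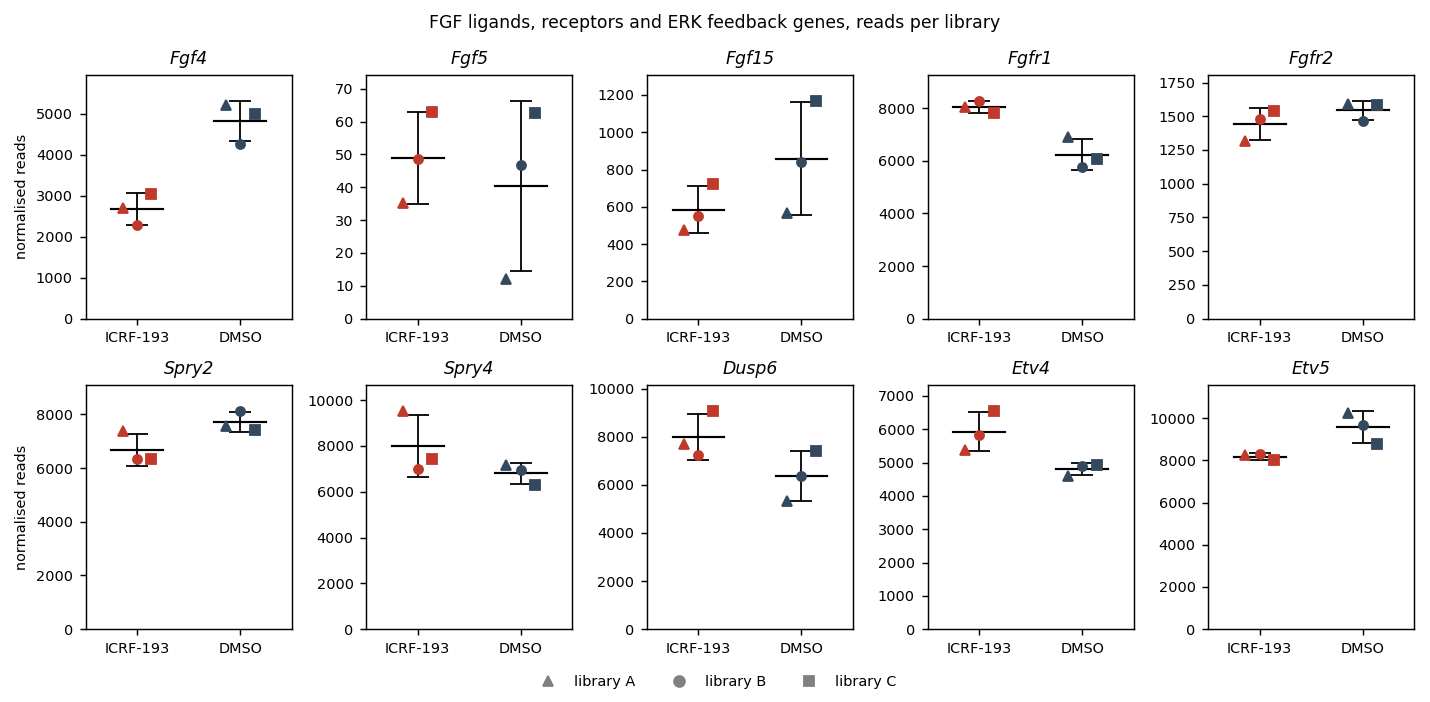
Normalised reads of the 10 genes in each library (vertical axis from 0; red, ICRF-193; dark, DMSO; triangles, circles and squares, libraries A, B and C), with the mean and SD of 3 libraries as horizontal and vertical lines. The ICRF-193 libraries of Fgf4 sit between 2273 and 3041, below all DMSO libraries, and those of Fgf5, Fgf15, Fgfr2, Spry4 and Dusp6 overlap with DMSO.

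Fgf4 encodes the ligand that signals between ES cells. It was at 2698, 2273 and 3041 normalised reads in ICRF-193 libraries A, B and C, against 5203, 4258 and 4990.5 in DMSO libraries A, B and C. The groups did not overlap, and no library of either group lay near the other. The means were 2671 ± 385 in ICRF-193 and 4817 ± 496 in DMSO (SD, n = 3 each). The log2 fold change in the authors' deposited table was -0.85 (DESeq, adjusted p = 0.0086). Limma-voom gave -0.86 (adjusted p = 0.0123), with a 95% interval of 0.436 to 0.697 for the ratio. With the split term the limma-voom estimate was again -0.86 (adjusted p = 3.0e-05), and without both libraries A it was -0.81 (adjusted p = 2.8e-04). Of the 6 fits that leave out a single library, those without DMSO-C and ICRF-193-B no longer passed (limma-voom, adjusted p = 0.0556 and 0.062), with log2 fold changes of -0.83 and -0.75. The 8 ES markers had a median log2 fold change of -0.61 in the authors' deposited table. There DESeq called 1 of 8, Zfp42, lower, where 1.26% of all genes were, and 0 higher. At an unadjusted p under 0.05 the counts were 3 lower and 0 higher, with no share over all genes counted. Limma-voom called 2 of the 8 lower, where 5.96% of all genes were, and 0 higher. Without both libraries A limma-voom called 8 of 8 lower, where 29.8% of all genes were, and of the 8 fibroblast or feeder markers it called 4 higher (Col1a1, Col1a2, Thy1 and Acta2) and 0 lower, where 24.1% of all genes were higher. The part of either marker list in the fall of Fgf4 was not tested. In bulk RNA, fewer cells of a type and less RNA per cell cannot be told apart.

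The promoter of Fgf4 is shown because this is the one gene of the 10 that passed the authors' test. Those of the ERK brakes Dusp6 and Spry2, which did not pass it, are shown beside it. Both were called with the split term, as were 59.7% of all genes. Etv5 was also called there, and its promoter was at hand but is not printed. RefSeq sequences on GRCm38.p6 were at hand for 6 of the 10 genes, each 300 bases running from 250 bases before the transcription start to 50 after it. The windows are chr7:144861136-144861435 on the plus strand for Fgf4, chr10:99262981-99263280 on the plus strand for Dusp6 and chr14:105896770-105897069 on the minus strand for Spry2. The deposited reads were mapped to mm9, and no coordinates were carried between the builds. Capitals mark matches on either strand to the GC box GGGCGG, the CCAAT box CCAAT, the letters TATATA or TATAAA of TATA boxes, and the core CCGGAA that ETS factors bind.
Fgf4: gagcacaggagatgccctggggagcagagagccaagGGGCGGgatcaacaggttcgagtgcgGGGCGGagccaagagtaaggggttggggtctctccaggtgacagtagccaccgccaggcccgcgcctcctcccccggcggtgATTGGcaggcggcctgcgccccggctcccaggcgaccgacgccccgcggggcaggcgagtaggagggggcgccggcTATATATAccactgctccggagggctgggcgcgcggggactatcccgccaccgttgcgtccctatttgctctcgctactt
Dusp6: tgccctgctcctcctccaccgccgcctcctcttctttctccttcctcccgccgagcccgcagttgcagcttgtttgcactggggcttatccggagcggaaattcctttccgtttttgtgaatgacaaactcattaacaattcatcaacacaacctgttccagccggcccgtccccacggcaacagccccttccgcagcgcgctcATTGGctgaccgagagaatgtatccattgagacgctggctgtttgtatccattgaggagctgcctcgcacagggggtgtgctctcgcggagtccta
Spry2: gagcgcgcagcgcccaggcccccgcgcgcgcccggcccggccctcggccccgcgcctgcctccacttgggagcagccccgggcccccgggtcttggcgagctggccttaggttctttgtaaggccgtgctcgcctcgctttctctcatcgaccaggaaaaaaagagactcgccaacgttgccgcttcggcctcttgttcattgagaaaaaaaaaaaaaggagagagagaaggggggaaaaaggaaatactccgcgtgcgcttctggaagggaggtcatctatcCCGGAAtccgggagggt

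The Fgf4 window held 2 GC boxes, 1 CCAAT box on the minus strand and 2 overlapping copies of TATATA upstream of the start, and no CCGGAA. The Dusp6 window held 1 CCAAT box and none of the other letters. The Spry2 window held 1 CCGGAA just downstream of the start and none of the other letters. Among 32851 promoter windows of the same length, 35.7% held GGGCGG, 37.4% CCAAT, 5.67% TATATA, 13.6% TATAAA and 14.9% CCGGAA. A match describes these letters and does not show a bound site.

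The other ligand genes did not pass. Fgf15, the mouse counterpart of human FGF19 and a hormone of bile acid control in the gut, was at 477, 551 and 723 normalised reads in ICRF-193 libraries A, B and C, against 564, 842 and 1169 in DMSO libraries A, B and C. The groups overlapped, and library A was the lowest of both. Its means were 583 ± 126 in ICRF-193 and 859 ± 303 in DMSO (SD, n = 3 each), with a deposited ratio of 0.679 (authors' deposited table, DESeq adjusted p = 0.573). Limma-voom gave an adjusted p of 0.293, and with the split term it called Fgf15 lower (adjusted p = 0.00882), as it did without both libraries A (adjusted p = 0.00615). Exons of Fgf15 overlap 2 antisense genes, Gm26793 and Gm39119, and whether the kit keeps strand is not given in the sources used here, so reads of either strand cannot be told apart.

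Fgf5, a marker of the primed epiblast that ES cells give rise to, was at 35.1, 48.7 and 62.8 normalised reads in ICRF-193 libraries A, B and C, against 11.9, 46.6 and 62.7 in DMSO libraries A, B and C. It was the least abundant of the 10 genes, and its library values differed more within DMSO than between the groups. The means were 48.9 ± 13.9 in ICRF-193 and 40.4 ± 25.9 in DMSO (SD, n = 3 each), a deposited ratio of 1.21 (authors' deposited table, DESeq adjusted p = 0.899). The direction rests on DMSO-A with its 15 reads: without that library the limma-voom log2 fold change was -0.19 (adjusted p = 0.684), and without both libraries A it was 0.04 (adjusted p = 0.916). The 6 primed epiblast markers, Fgf5 among them, summed to 15961 in library A and 20844 to 22212 in B and C in ICRF-193, against 24698 in library A and 36140.2 to 40078 in B and C in DMSO. Dnmt3b made up most of each sum, at 13177 in ICRF-193-A and 20793 in DMSO-A. Lef1 went the other way, with library A at 1.97 times the mean of B and C in ICRF-193 and 1.13 times in DMSO. The authors' DESeq test called 2 of the 6 lower, Dnmt3b and Zic2, and 0 higher, where 1.26% of all genes were lower. The same counts held in limma-voom, where 5.96% of all genes were lower. They also held at an unadjusted p under 0.05, for which no share over all genes was counted. Without both libraries A limma-voom called 4 of the 6 lower and 0 higher, where 29.8% of all genes were lower.

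The receptors differed in level. Fgfr1, the receptor that carries most FGF4 signal in ES cells, was at 8054, 8281 and 7799 normalised reads in ICRF-193 libraries A, B and C, against 6903, 5749 and 6051 in DMSO libraries A, B and C. All ICRF-193 libraries lay above all DMSO libraries. Its means were 8045 ± 241 in ICRF-193 and 6234 ± 598 in DMSO (SD, n = 3 each), a deposited ratio of 1.29 that did not pass (authors' deposited table, DESeq adjusted p = 0.515). Limma-voom gave an adjusted p of 0.0508, with a 95% interval of 1.10 to 1.52 for the ratio. It called Fgfr1 higher with the split term (adjusted p = 3.05e-04), without both libraries A (adjusted p = 1.93e-04) and, of the fits without a single library, in the one without DMSO-A (adjusted p = 0.0223). An antisense gene, Gm16159, overlaps exons of Fgfr1.

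Fgfr2, the receptor best known from primitive endoderm and trophoblast, was at 1314, 1479 and 1542 normalised reads in ICRF-193 libraries A, B and C, against 1588, 1464 and 1583 in DMSO libraries A, B and C. The groups overlapped, with means of 1445 ± 118 in ICRF-193 and 1545 ± 70.1 in DMSO (SD, n = 3 each). The deposited ratio was 0.935 (authors' deposited table, DESeq adjusted p = 0.965), and the 95% interval of the ratio in limma-voom was 0.781 to 1.11. Exons of Fgfr2 and Ctbp2 overlap on the same strand in the annotation. Whether reads there were counted for Fgfr2, for Ctbp2 or for neither is not known here. The 7 primitive endoderm markers, which mark the cells that FGF signalling promotes in the embryo, had their highest sum in library A of both groups, as given above. The authors' DESeq test called 0 of these 7, where 7.23% of all genes were called, and limma-voom called 0, where 15.7% were. At an unadjusted p under 0.05 the DESeq count was also 0, for which no share over all genes was counted. Limma-voom without both libraries A called 3 of the 7 higher and 0 lower, where 24.1% of all genes were higher.

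The feedback genes were among the more abundant transcripts of the 10. Dusp6, the phosphatase that inactivates ERK, was at 7706, 7227 and 9061 in ICRF-193 libraries A, B and C, against 5315, 6365 and 7419.8 in DMSO libraries A, B and C. The highest DMSO library exceeded the lowest ICRF-193 library, so the groups overlapped. The means were 7998 ± 951 in ICRF-193 and 6367 ± 1053 in DMSO (SD, n = 3 each), a deposited ratio of 1.26 (authors' deposited table, DESeq adjusted p = 0.534). In limma-voom the 95% interval of the ratio was 0.982 to 1.63 (adjusted p = 0.182). The fit with the split term called Dusp6 higher (adjusted p = 0.00962), and that without both libraries A did not (limma-voom, adjusted p = 0.0769).

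The Sprouty genes, whose proteins dampen receptor tyrosine kinase signalling, had ratios on opposite sides of 1. Spry2 was at 7375, 6348 and 6345 normalised reads in ICRF-193 libraries A, B and C, against 7580.1, 8119.9 and 7405 in DMSO libraries A, B and C. Spry4 was at 9512, 6996 and 7429 in ICRF-193 libraries A, B and C, against 7181, 6931 and 6292 in DMSO libraries A, B and C. The groups of Spry2 lay apart by a narrow gap with ICRF-193 the lower, while those of Spry4 overlapped and ICRF-193-A was the highest of all. The deposited ratios were 0.869 for Spry2 and 1.17 for Spry4 (authors' deposited table, DESeq adjusted p = 0.822 and 0.767). Limma-voom gave 95% intervals of 0.737 to 1.02 for Spry2 and 0.926 to 1.46 for Spry4. With the split term limma-voom called Spry2 lower (adjusted p = 0.015) and Spry4 higher (adjusted p = 0.0136). Without both libraries A the Spry2 call held (limma-voom, adjusted p = 0.00337) and the Spry4 call did not (adjusted p = 0.139).

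Etv4 and Etv5, close relatives that act downstream of FGF receptors, also had ratios on opposite sides of 1. Etv4 was at 5381, 5831 and 6542 normalised reads in ICRF-193 libraries A, B and C, against 4589, 4901 and 4923.5 in DMSO libraries A, B and C. Etv5 was at 8247, 8297 and 8013 in ICRF-193 libraries A, B and C, against 10268, 9703 and 8777 in DMSO libraries A, B and C. Neither gene's groups overlapped, and ICRF-193 was the higher for Etv4 and the lower for Etv5. The means of Etv4 were 5918 ± 585 in ICRF-193 and 4804 ± 187 in DMSO, and those of Etv5 were 8186 ± 152 in ICRF-193 and 9583 ± 753 in DMSO (SD, n = 3 each). The deposited ratios were 1.23 and 0.854 (authors' deposited table, DESeq adjusted p = 0.63 and 0.753). Limma-voom did not call either (adjusted p = 0.101 and 0.144). It called both with the split term (adjusted p = 9.9e-04 and 0.00443) and without both libraries A (adjusted p = 0.00238 and 0.0392), Etv4 higher and Etv5 lower.

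**Figure D2:**
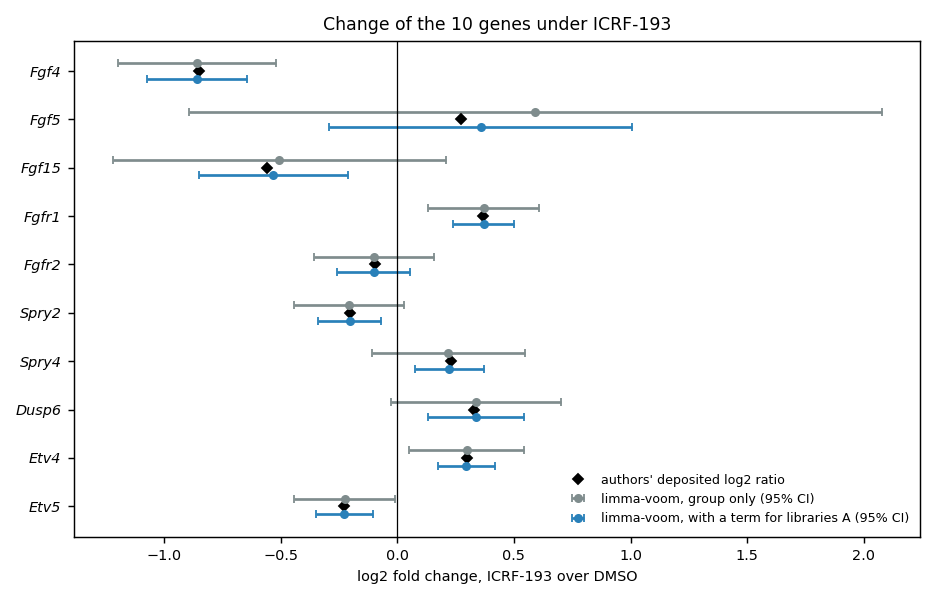
Log2 fold change of the 10 genes, ICRF-193 over DMSO (horizontal axis), as the authors' deposited ratio (black diamonds) and as limma-voom estimates with 95% intervals for the group alone (grey) and with a term for libraries A (blue). Fgf4 lies farthest below 0, and Fgf5 has the widest interval.

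The number of calls followed how the libraries were modelled, for these genes and for all genes alike. The group-only limma-voom fit called 0 of the 10 higher and 1 lower, against 15.7% of 14982 genes called, 9.75% higher and 5.96% lower. The fit with the split term called 4 higher and 4 lower, where 59.7% of all genes were called, 27.1% higher and 32.7% lower. Without both libraries A limma-voom called 2 higher and 4 lower, against 53.9% of 14427 genes, 24.1% higher and 29.8% lower. In 5 of the 10 genes the ICRF-193 and DMSO libraries did not overlap, 2 higher (Fgfr1 and Etv4) and 3 lower (Fgf4, Spry2 and Etv5), against 37.4% of the 14982 genes, 18.6% higher and 18.8% lower. All 10 genes passed the filter on low reads. For 7 of the 10 genes, all but the 3 ligands, the 95% interval of the limma-voom ratio lay between 0.5 and 2. The split-term fit takes the change to be the same in libraries A as in the other 4. With only 1 library A per group, no p-value is given for an interaction of treatment with the split. Its limma-voom estimates (log2, libraries A against the other 4) ran from -0.26 for Fgfr2 to 1.49 for Fgf5. For Spry2 and Spry4 the estimates were 0.25 and 0.28.

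Set per kilobase of exon, the 10 transcripts covered a wide range of levels. In ICRF-193 the order from the top was Spry2, Dusp6, Etv5, Etv4, Spry4, Fgf4, Fgfr1, Fgf15, Fgfr2 and Fgf5, and in DMSO it was Spry2, Etv5, Dusp6, Etv4, Fgf4, Spry4, Fgfr1, Fgf15, Fgfr2 and Fgf5. The level of Spry2 was 3205 ± 285 normalised reads per kilobase in ICRF-193 and 3690.3 ± 179 in DMSO, and that of Fgf5 was 19.6 ± 5.54 in ICRF-193 and 16.2 ± 10.4 in DMSO (SD, n = 3 each). Fgf4 was at 836 ± 120.5 per kilobase in ICRF-193, within its SD of Fgfr1 at 815 ± 24.4, against 1508 ± 155 for Fgf4 and 631 ± 60.6 for Fgfr1 in DMSO (SD, n = 3 each). The level of Fgfr1 per kilobase exceeded that of Fgfr2 at 140 ± 11.4 in ICRF-193 and 150 ± 6.79 in DMSO by far more than either spread (SD, n = 3 each). These levels use all annotated exons, so isoforms that are not expressed lower them.

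Fgf4 and Fgf15 are neighbours on chromosome 7, and Fgf3, Fgf4, Fgf15, Oraov1 and Ccnd1 follow each other in that order (RefSeq, GRCm38.p6). Fgf3, a ligand gene of the early embryo, had means of 34.3 ± 6.77 in ICRF-193 and 48.2 ± 16.1 in DMSO, and Oraov1 had 500 ± 124 in ICRF-193 and 488 ± 63.1 in DMSO (SD, n = 3 each). Ccnd1, which encodes cyclin D1, had 9762 ± 421 normalised reads in ICRF-193 and 8089 ± 903 in DMSO (SD, n = 3 each). The deposited log2 fold changes along the row were -0.49, -0.85, -0.56, 0.03 and 0.27, and Fgf4 was the only gene of the 5 to pass in the authors' deposited table, where the DESeq adjusted p of the others were 0.592, 0.573, 1 and 0.658. The 3 FGF genes had ratios below 1 and the neighbouring pair above 1, without a test of that pattern.

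**Figure D3:**
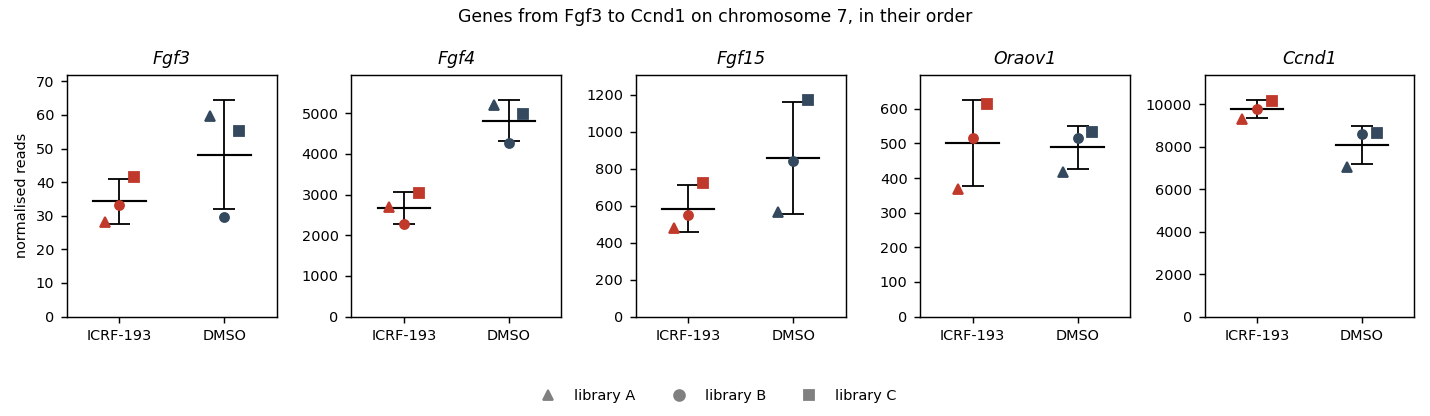
Normalised reads per library (vertical axes from 0) of the 5 genes from Fgf3 to Ccnd1 in chromosomal order, with the mean and SD of 3 libraries per group. The groups are apart for Fgf4, lower in ICRF-193, and for Ccnd1, higher in ICRF-193, and overlap for the other 3.

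The wider pathway was read from a list of 66 further genes, 65 of them with reads (Spry3 had none). By the authors' deposited DESeq test 1 rose, where 5.97% of all genes did, 3 fell, where 1.26% did, and 61 did not pass, with a median log2 fold change of -0.01 over those with reads in both groups. Among 19 further ligands 2 fell, among 8 further receptors and coreceptors 1 rose, among 15 further feedback genes and targets 1 fell, and among 24 adaptors and kinases from FRS2 to ERK the DESeq test called 0.

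Fgf17, a ligand of the FGF8 subfamily, fell. It was at 576, 557 and 509 normalised reads in ICRF-193 libraries A, B and C, against 1184, 1199 and 1316 in DMSO libraries A, B and C. The groups lay far apart, with means of 547 ± 34.3 in ICRF-193 and 1233 ± 72.5 in DMSO (SD, n = 3 each). The log2 fold change in the authors' deposited table was -1.17 (DESeq, adjusted p = 1.78e-04), and the call held in limma-voom (adjusted p = 0.0029) and in all 6 fits without a single library (limma-voom, highest adjusted p = 0.0291).

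Fgf21, a stress-induced hormone of metabolism, fell on few reads. The recovered reads were 1, 3 and 7 in ICRF-193 libraries A, B and C, against 19, 30 and 19 in DMSO libraries A, B and C. The deposited log2 fold change was -2.45 in the authors' deposited table (DESeq, adjusted p = 0.00724). The gene had at least 10 reads in the DMSO libraries alone, so it passed the limma-voom filter only through the group where it was high. Its limma-voom p is therefore not given, but limma-voom counts over the wider list still include this gene.

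Fgfr4, the receptor that binds FGF15 together with the coreceptor beta-Klotho, rose. It was at 521, 434 and 539.8 normalised reads in ICRF-193 libraries A, B and C, against 195, 126 and 109 in DMSO libraries A, B and C. Every ICRF-193 library exceeded every DMSO library, and the groups lay far apart. Its means were 498 ± 56.2 in ICRF-193 and 143 ± 45.5 in DMSO (SD, n = 3 each), a deposited ratio of 3.48 (authors' deposited table, DESeq adjusted p = 1.86e-08). The call held in limma-voom (adjusted p = 0.00637) and in all 6 fits without a single library (limma-voom, highest adjusted p = 0.0416). Per kilobase Fgfr4 was at 141 ± 15.9 in ICRF-193, near Fgfr2 in that group, and at 40.5 ± 12.8 in DMSO (SD, n = 3 each). Klb, the gene of beta-Klotho, was at 116, 36.3 and 44.9 normalised reads in ICRF-193 libraries A, B and C, against 115, 9.92 and 23.8 in DMSO libraries A, B and C. Library A was the highest of both groups, and Klb did not pass (authors' deposited table, DESeq adjusted p = 1). Limma-voom without both libraries A called Klb higher (log2 fold change 1.37, adjusted p = 0.0127), where 24.1% of all genes were higher. Recovered reads of Klb were few there, at 35 and 40 in ICRF-193 libraries B and C, against 10 and 22 in DMSO libraries B and C.

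Etv1, the remaining relative of Etv4 and Etv5, fell. It was at 253, 200.1 and 230.1 normalised reads in ICRF-193 libraries A, B and C, against 465, 475 and 428 in DMSO libraries A, B and C. The groups did not overlap, with means of 228 ± 26.5 in ICRF-193 and 456 ± 24.8 in DMSO (SD, n = 3 each). The deposited ratio was 0.499 (authors' deposited table, DESeq adjusted p = 0.00398), and limma-voom gave an adjusted p of 0.00778. Without ICRF-193-B the limma-voom adjusted p was 0.0505. Per kilobase Etv1 was the least abundant of the trio, at 17.1 ± 1.99 in ICRF-193 and 34.3 ± 1.87 in DMSO (SD, n = 3 each).

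**Figure D4:**
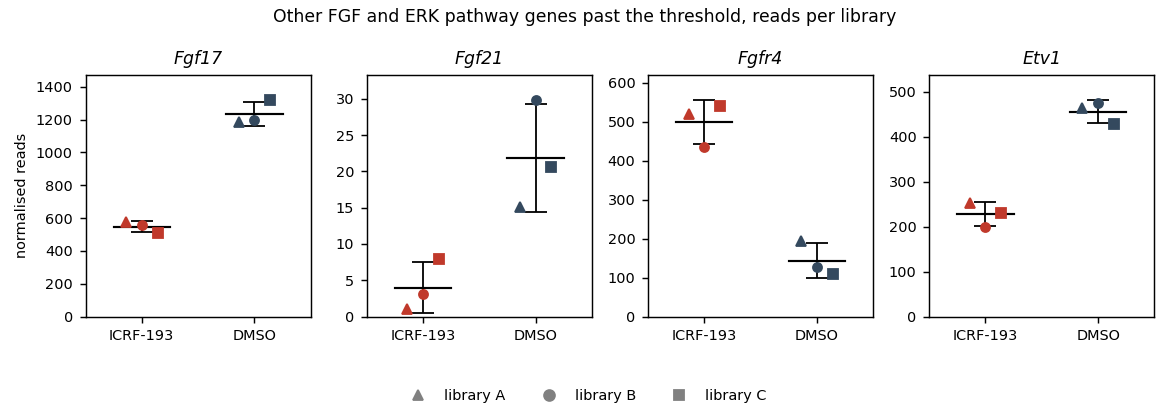
Normalised reads per library (vertical axes from 0) of the 4 further pathway genes that passed the authors' test, with the mean and SD of 3 libraries per group. Fgf17, Fgf21 and Etv1 are lower and Fgfr4 is higher in ICRF-193, with no overlap between the groups.

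The authors' DESeq test called none of the kinase chain. Of 24 adaptor and kinase genes 0 were higher and 2 lower at an unadjusted p under 0.05, Mapk3 and Rps6ka2, with deposited log2 fold changes of -0.59 and -0.67 in the authors' deposited table (adjusted p = 0.153 and 0.0665). The share of all genes at an unadjusted p under 0.05 was not counted. Mapk3 encodes ERK1, and Rps6ka2 encodes an RSK kinase that ERK activates. Limma-voom called 4 of the 24 lower and 0 higher, where 5.96% of all genes were lower and 9.75% higher. Mapk3 and Rps6ka2 were among them, with limma-voom adjusted p of 0.0321 and 0.0405. With the split term limma-voom called 6 higher and 9 lower of the 24, near the shares over all genes of 27.1% higher and 32.7% lower.

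**Figure D5:**
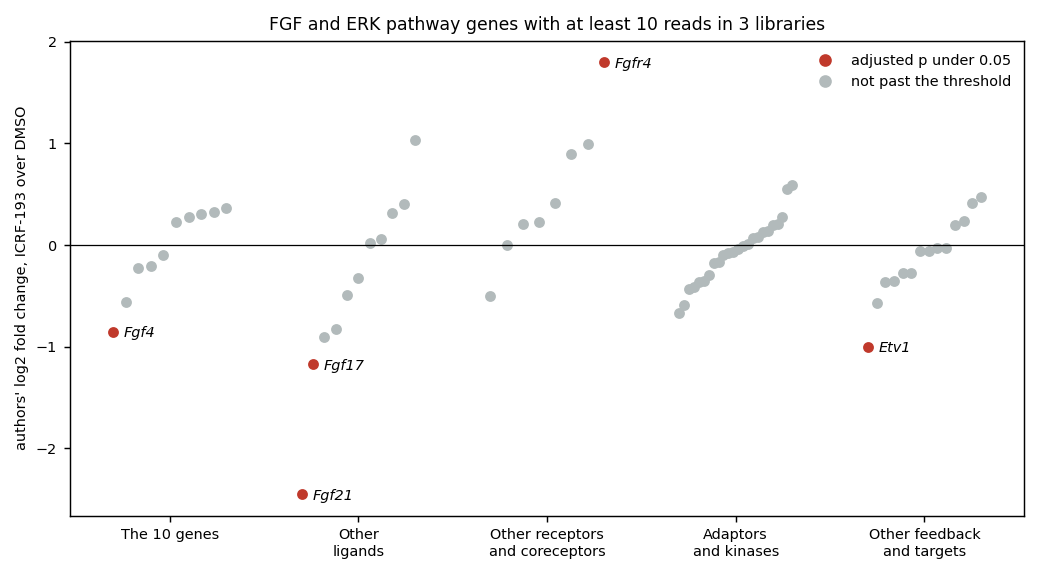
Deposited log2 fold change, ICRF-193 over DMSO (vertical axis), of the pathway genes with at least 10 reads in 3 libraries, sorted within each role; red points passed the authors' test and grey points did not. Fgf4, Fgf17, Fgf21 and Etv1 lie below 0 and Fgfr4 lies above it at 1.80.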

How the data were processed

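Sequenced RNA of ES cells treated with ICRF-193 or DMSO was analysed from a single table. The authors used TopHat, HTSeq and DESeq with mm9, per the submitters' processing notes. Versions, annotation and strand are not given in the sources used here. The deposited group columns are a signal, the average over 3 libraries of reads scaled by size factors. The deposited fold change is a ratio of these means, and the deposited log2 value is its logarithm. The deposited p-values come from the authors' DESeq test and are the main result here, at an adjusted p under 0.05 over 18759 genes.

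Whole reads per library were worked back from the means with a lattice search. Of the genes with reads, 18213 (97.1%) had a single solution, 501 were settled by a posterior of at least 0.99, and 45 highly expressed genes, holding 7.55% of the signal in ICRF-193 and 8.09% in DMSO, stayed unresolved, so read totals are over resolved genes. The spread between libraries includes counting error. Size factors computed anew from these reads were within 0.039% of those implied by the means. The search and the fits were also run on simulated data that had the split of libraries A built in. Such data cannot tell whether the split term suits the real libraries. Limma-voom (limma 3.58.1, R 4.3.3) was fitted to 14982 genes with at least 10 reads in 3 libraries, with the authors' size factors, as the means imply them, and Benjamini-Hochberg adjustment. Exon lengths are from GENCODE vM21.

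All 10 members are named, and of the wider list each gene past the threshold. Fgf3, Klb, Mapk3 and Rps6ka2 of the wider list are also described, though they did not pass it. Others of that list at an unadjusted p under 0.05 are not described. Members and lists were chosen with earlier results of these data known. Hras was matched as Hras1. Some genes of the wider list are not reported here by name.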

Additional observations from a re-analysis of the deposited data

How the results depend on the processing

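The authors' test called 5.97% of all genes higher and 1.26% lower. It called 0 of the 10 genes higher and 1 lower, and 1 of the 66 further pathway genes higher and 3 lower. Thresholds of 0.01 and 0.1, and adjustment over genes with a mean of at least 10, kept these counts, except 4 lower further genes at 0.1. Limma-voom, also with TMM scaling, gave 0 and 1 of the 10, and 1 higher and 8 lower of the 66. With the authors' size factors it called 9.75% of all genes higher and 5.96% lower. With no filter on low reads the 66 gave 2 and 7. In limma-voom fits to all 6 libraries the lower count of the 66 includes Fgf21, which had at least 10 reads in DMSO alone. Total read scaling shifted the median of all genes by 0.126 (log2) and gave 1 and 1 of the 10, and 2 and 4 of the 66. The split term gave 4 and 4 of the 10 and 14 and 20 of the 66, where 27.1% of all genes were higher and 32.7% lower. The labels do not name this split, which was read from these same libraries. Also chosen after seeing the data, the split term with TMM scaling gave 4 and 4, and 12 and 20. With total read scaling it gave 4 and 2, and 20 and 17. Without both libraries A the numbers were 2 and 4, and 10 and 18, where 24.1% of all genes were higher and 29.8% lower. Leaving out a single library gave 0 to 1 higher and 0 to 1 lower of the 10, and 1 to 2 higher and 1 to 10 lower of the 66; with the split term, which was added later, 3 to 4 and 3 to 4 of the 10, and 7 to 14 and 17 to 19 of the 66. The 10 lower came without DMSO-A, and the 1 lower without ICRF-193-B. For settings given here without a share over all genes, that share was not counted, so their counts are not set against it.

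2 directions turned: Fgf5 was at -0.19 without DMSO-A, in a range of -0.19 to 1.04 over the fits without a single library, and Fgfr2 at 0.025 with total read scaling and 0.024 with the split term as well. Pseudocounts of 1 and 10 turned no sign. No paired analysis was run, and the deposited means do not show which recovered library is which of replicates 1 to 3. Libraries were matched between the groups in part. The split term sets both libraries A together, and the posterior that settled 501 genes compared libraries of the same letter. Depth limits Fgf5 and Fgf21, which have few reads, and Klb in libraries B and C.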
